A study of Mus musculus with 6 samples.

Results

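The mitosis and kinetochore genes described here are 52 mouse genes of 24422 in the deposited count tables, taken by gene symbol from a list of genes that act in dividing cells. The list was drawn up when earlier results of these data were known, so the counts of members that fell are a description of the list. They comprise 6 genes for the mitotic cyclins, Cdk1 and its activators, 4 for mitotic kinases, 5 for the spindle checkpoint, 4 for the chromosomal passenger complex, 10 for the centromere and kinetochore, 6 for anaphase entry and sister chromatid separation, 9 for spindle motors and cytokinesis, and 8 for chromosome condensation and the chromosome surface. All 52 symbols were found, and all 52 passed the filter on low counts, as did 15145 genes in all. A gene could pass this filter through the control kidneys alone. Cenpm, Cdc25c and Ska1 had under 10 raw counts in FeD kidneys 2 and 3, so their calls below are descriptions only. No member was at 0 in any kidney, and the lowest raw count of a member was 7.

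RNA was sequenced from whole kidneys of wild type C57BL/6 pups labelled as postnatal day 15. The 3 control kidneys came from pups of dams fed an iron-sufficient diet (220 ppm iron), and the 3 iron-deficient (FeD) kidneys from pups of dams fed a diet with 2 to 6 ppm iron. The dams received their diet from before mating until the pups were taken, so the diets spanned gestation and suckling, and no gene was deleted in either group. The labels name each kidney as a separate replicate but give no litter, so diet and litter cannot be told apart.

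Mitosis is driven by Cdk1 bound to cyclin A or B, which triggers chromosome condensation and spindle assembly. Kinetochores built on centromeric chromatin then attach the chromosomes to spindle microtubules, and the spindle checkpoint delays anaphase until every kinetochore is attached. Most of these genes are transcribed mainly in late S phase, G2 and M phase and are silent in resting cells, so their RNA is widely used as a measure of proliferation. In the mouse kidney new nephrons form until the first days after birth, and the tubules go on growing by cell division during suckling.

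Many genes of this program share short promoter elements. The letters TTTGAA and TTTAAA are the core of the cell cycle genes homology region, at which the DREAM complex represses and the MuvB, B-Myb and FoxM1 proteins activate transcription, and CCAAT boxes lie upstream and are bound by NF-Y. RefSeq promoter windows (GRCm38.p6, 250 bases before to 50 after the start) were matched for 42 of the 52 members. TTTGAA or TTTAAA, on either strand, began between 60 bases before and 40 bases after the start in 27 of these 42 (64.3%), against 8.51% of all 32851 promoters and 5.43% of 14560 promoters of tested genes. CCAAT, on either strand, occurred anywhere in the window in 33 of 42 members (78.6%) and in 37.4% of all promoters. These matches are of letters only, binding was not measured, and the members were listed for a function that itself goes with these elements.

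The stretches from 170 bases before the start are printed for 6 members, 5′ to 3′ on the gene's strand, with both hexamers and CCAAT, on either strand, in capitals. Ccnb2 (chr9:70421525-70421724, minus strand), Cdk1 (chr10:69352883-69353082, minus strand), Top2a (chr11:99024160-99024359, minus strand) and Espl1 (chr15:102296123-102296322, plus strand) are shown as downregulated members that carry a hexamer near the start, Nuf2 (chr1:169531435-169531634, minus strand) as the member with the largest fall and none of these letters, and Anln (chr9:22389177-22389376, minus strand) as a member with the hexamer near the start whose change did not pass the test. All coordinates of these windows are of GRCm38.p6, a later build than that of the counts.
Ccnb2: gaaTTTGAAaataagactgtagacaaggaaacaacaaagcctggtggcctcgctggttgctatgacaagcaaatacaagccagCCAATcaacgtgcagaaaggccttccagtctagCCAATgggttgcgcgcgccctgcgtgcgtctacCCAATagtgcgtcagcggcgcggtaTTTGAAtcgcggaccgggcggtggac
Cdk1: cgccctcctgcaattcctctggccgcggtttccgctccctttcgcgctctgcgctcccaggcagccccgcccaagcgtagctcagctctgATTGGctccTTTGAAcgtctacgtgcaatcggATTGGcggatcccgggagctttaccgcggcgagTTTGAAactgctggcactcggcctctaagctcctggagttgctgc
Top2a: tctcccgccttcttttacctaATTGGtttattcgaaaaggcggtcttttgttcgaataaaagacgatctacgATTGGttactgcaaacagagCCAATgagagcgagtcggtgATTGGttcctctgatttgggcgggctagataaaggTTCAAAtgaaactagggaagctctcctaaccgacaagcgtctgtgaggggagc
Espl1: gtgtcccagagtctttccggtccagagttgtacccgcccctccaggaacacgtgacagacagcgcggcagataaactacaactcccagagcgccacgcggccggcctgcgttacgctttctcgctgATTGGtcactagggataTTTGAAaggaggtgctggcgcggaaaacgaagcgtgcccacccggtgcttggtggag
Nuf2: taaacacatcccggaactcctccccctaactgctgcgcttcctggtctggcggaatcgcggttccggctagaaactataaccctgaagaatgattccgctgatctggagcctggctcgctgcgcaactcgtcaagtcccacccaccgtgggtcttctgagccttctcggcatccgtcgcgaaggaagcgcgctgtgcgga
Anln: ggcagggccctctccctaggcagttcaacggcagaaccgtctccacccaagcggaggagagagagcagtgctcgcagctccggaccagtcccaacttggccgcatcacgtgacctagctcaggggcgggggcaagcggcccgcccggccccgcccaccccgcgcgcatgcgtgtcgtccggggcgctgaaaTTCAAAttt
Ccnb2 carried TTTGAA at 5 bases after the start, Cdk1 at 15 bases before it and Espl1 at 27 bases before it. On the other strand, Top2a carried it at 23 bases before the start and Anln at 22 bases after it. The start base opens the downstream count, and there is no position 0. The hexamer near the start occurred in 22 of 32 matched members that were downregulated (68.8%) and in 5 of 10 that were not (50%). CCAAT occurred in 28 of those 32 (87.5%) and in 5 of the 10 (50%). With 10 members in the smaller class, these shares are given as a description and were not compared by a test.

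Counts of reads per gene were scaled by edgeR's TMM factors and are given below as normalised counts per kidney, in the order of kidneys 1 to 3 and with the control diet first. A gene was called downregulated or upregulated at a Benjamini-Hochberg adjusted p under 0.05 in edgeR's quasi-likelihood test together with a change of at least 2-fold, and all adjusted p values below are from that test over 15145 genes. The totals were 16189041 to 20374327 reads in control and 13732173 to 20853293 in FeD kidneys, and genes varied between kidneys of 1 group with a coefficient of variation near 0.128. Epo, the erythropoietin gene that kidneys induce at low oxygen, rose from 3.83, 4.43 and 4.45 to 71, 45.4 and 56.1 (log2 fold change 3.73, SE 0.32, adjusted p = 9.85e-05). With so few counts in control kidneys, Epo could pass the filter only through the FeD kidneys, so its change is a description. Tfrc, the transferrin receptor, was lower (log2 fold change -0.47, SE 0.08, adjusted p = 0.00211). Epo and Tfrc thus moved in opposite directions, and kidney iron was not measured in these data. Summed counts of 7 adrenal marker genes were 1413, 195 and 146 in control kidneys 1 to 3 and 258, 14441 and 261 in FeD kidneys 1 to 3, so FeD kidney 2 and, less so, control kidney 1 stood apart. Xist was high in control kidneys 1 and 2 and FeD kidney 3, and Y-linked genes were high in the other 3, so the sexes were not balanced between the diets.

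Most of the 52 genes fell in the FeD kidneys. Of them, 39 were downregulated and 0 were upregulated, whereas 5.69% of all genes tested were downregulated and 4.34% upregulated. The 39 include Cenpm, Cdc25c and Ska1, and 36 members were downregulated when at least 10 counts were required in every kidney. By the adjusted p alone 47 of 52 were lower and 0 higher (all genes: 23.3% lower, 22.4% higher), and in 48 of 52 every FeD kidney lay below every control kidney (all genes: 29.7%). The median change of the 52 was a log2 fold change of -1.36, a 2.57-fold fall, beside -0.00177 over all genes. Of the 52, the middle values ran from -1.79 to -1 (quartiles), and the extremes were -2.43 for Nuf2 and 0.06 for Bub1b. Whole kidneys were sequenced, so fewer dividing cells and less of these RNAs per cell cannot be told apart.

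Added together, the members took 666.5, 668.5 and 657.9 reads per 1000000 in control kidneys 1 to 3 and 356.2, 320.1 and 337.6 in FeD kidneys 1 to 3. The control kidneys lay close to one another, and the FeD kidneys formed a separate group. The sums were 664.3 ± 5.61 and 338 ± 18.1 (SD, n = 3 each), a 1.97-fold difference. The abundant members Pttg1, Spc25 and Smc4, which had the highest counts in the FeD kidneys, all differed by less than 2-fold. Relative to the control mean, the median member was at 0.448 in FeD kidney 1, 0.367 in FeD kidney 2 and 0.324 in FeD kidney 3. FeD kidney 3 was the lowest of the 3 FeD kidneys for 34 of 52 members (39.2% of all genes) and FeD kidney 1 the highest for 31 of 52 (30.7% of all genes). Without the 2 kidneys richest in adrenal markers 37 members were downregulated (median -1.31) and 41 were lower at the adjusted p alone. With sex as a term in the fit 40 were downregulated (median -1.38) and 47 were lower at the adjusted p alone.

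**Figure D1:**
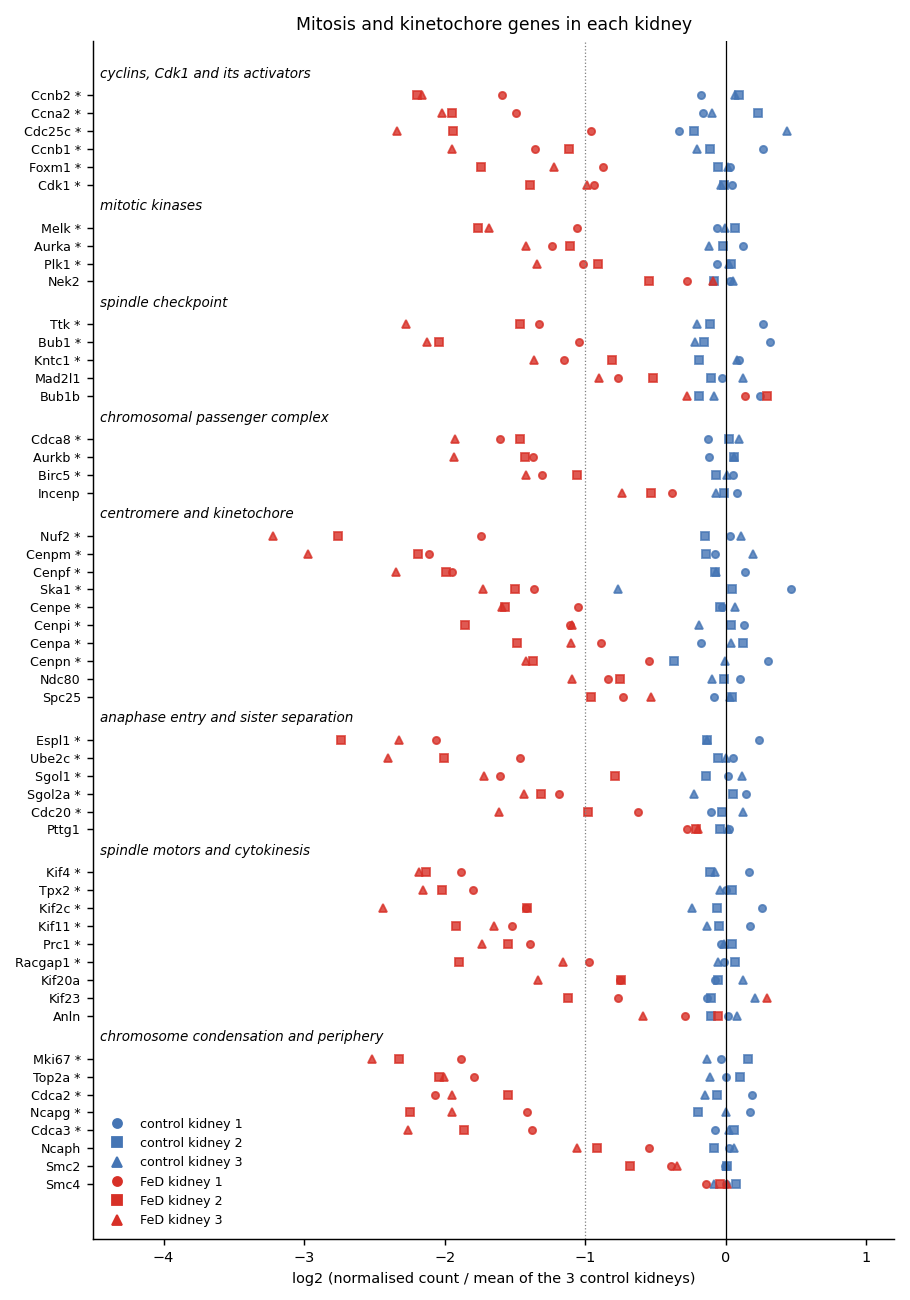
Each row is a member, grouped by role, and each symbol a kidney, placed on the x axis by the log2 ratio of its normalised count to the mean of the 3 control kidneys (blue, control; red, FeD; an asterisk marks the 39 downregulated members; the dotted line is 2-fold lower). The FeD symbols lie left of all control symbols in 48 rows and overlap them in Bub1b, Kif23, Anln and Smc4.

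All 6 genes of the cyclins, Cdk1 and its activators were downregulated, with a median log2 fold change of -1.53. Cdk1, the kinase that starts mitosis (mm9 chr10:68799383-68815686), had 229, 220.1 and 217 normalised counts in control kidneys 1 to 3 and 116, 84.4 and 112 in FeD kidneys 1 to 3. The control kidneys agreed closely and all 3 FeD kidneys were lower, without overlap (2.12-fold; log2 fold change -1.08, SE 0.15, adjusted p = 0.000725). Cdk1 lay just past the 2-fold limit, and without FeD kidney 2 its change was -0.94 and it was no longer called. Ccnb2, which encodes cyclin B2, fell furthest of the 6, from 195, 236 and 230.4 to 73, 48 and 49.2 normalised counts. Every FeD kidney was far below the lowest control (3.86-fold; log2 fold change -1.95, SE 0.19, adjusted p = 0.000176). Ccna2, for cyclin A2, fell 3.47-fold, from 219, 288 and 229 to 87, 63.6 and 60.4 normalised counts (adjusted p = 0.00022). Of the Ccna2 exons, 14.6% overlap Exosc9 on the opposite strand, and the strand setting of the counts is not given in the sources used here. Ccnb1, for cyclin B1, fell 2.73-fold (adjusted p = 0.00196), with the limit that 83.1% of its transcript has a near-identical copy elsewhere in the genome, so reads may be missing or shared. Foxm1, the transcription factor that activates many genes of this group, had 204, 192 and 202 normalised counts in control and 109, 59.7 and 85.5 in FeD kidneys. Here FeD kidney 2 was the lowest and FeD kidney 1 the highest of the FeD group, all below the controls, with 16.1% of the transcript copied elsewhere (2.34-fold; log2 fold change -1.22, SE 0.20, adjusted p = 0.00183). Cdc25c, the phosphatase that activates Cdk1, was at low counts (6.91 to 18 in FeD and 27.8 to 47.2 in control kidneys; log2 fold change -1.62, SE 0.41, adjusted p = 0.0127), and its call was lost without control kidney 3 (-1.34, adjusted p = 0.059).

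Of the 4 mitotic kinases, 3 were downregulated. Aurka, which acts at spindle poles, had 128, 116 and 109 normalised counts in control and 49.99, 54.5 and 44 in FeD kidneys, and Plk1, a kinase with roles from mitotic entry to cytokinesis, had 124, 133 and 132 against 64, 68.8 and 50.9. In both genes the groups stood well apart (Aurka 2.38-fold, log2 fold change -1.25, SE 0.17, adjusted p = 0.000772; Plk1 2.12-fold, log2 fold change -1.08, SE 0.17, adjusted p = 0.00143). Plk1 was just past the 2-fold limit, and its change was -0.95 without FeD kidney 3. Melk fell 2.75-fold (adjusted p = 0.00193). Nek2, a kinase of centrosome separation, had 148, 136 and 149 against 119, 98.7 and 136. The groups did not overlap, but FeD kidney 3 came within 1 count of the lowest control and the change did not pass the test (log2 fold change -0.29, SE 0.15, adjusted p = 0.157), and 19.96% of the Nek2 transcript has a near-identical copy elsewhere.

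The 5 spindle checkpoint genes split. Bub1, the kinase that seeds the checkpoint at kinetochores, had 79.6, 57.5 and 55.2 normalised counts in control and 31, 15.6 and 14.7 in FeD kidneys, and Ttk, which encodes the checkpoint kinase Mps1, had 60.4, 46.5 and 43.6 against 20, 18.2 and 10.4. All FeD kidneys were below all controls in both (Bub1 3.12-fold, log2 fold change -1.64, SE 0.33, adjusted p = 0.00485; Ttk 3.13-fold, log2 fold change -1.64, SE 0.31, adjusted p = 0.0033). Kntc1, for the Rod subunit of the outer kinetochore, fell 2.15-fold (adjusted p = 0.00339) and was at -0.97 without FeD kidney 3, no longer past 2-fold. Mad2l1, for the inhibitor Mad2, fell 1.65-fold, less than 2-fold but past the test (adjusted p = 0.0038). Bub1b, which encodes BubR1, the partner of Mad2 in the inhibitor of anaphase, had 204, 152 and 163 normalised counts in control and 189.97, 212 and 142 in FeD kidneys. The FeD kidneys lay on both sides of the control range (log2 fold change 0.06, SE 0.18, adjusted p = 0.806), and the sign of this small difference turned without control kidney 2 (-0.02) or FeD kidney 2 (-0.04) and with sex as a term (-0.01).

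The chromosomal passenger complex corrects faulty attachments and later acts in cytokinesis. Its kinase gene Aurkb had 109, 124 and 124 normalised counts in control and 46, 44.1 and 31.1 in FeD kidneys, and Cdca8, for its subunit Borealin, had 111, 124 and 129.9 against 39.99, 44.1 and 31.9. In both, the highest FeD kidney was far below the lowest control kidney (Aurkb 2.96-fold, log2 fold change -1.56, SE 0.20, adjusted p = 0.000574; Cdca8 3.16-fold, log2 fold change -1.66, SE 0.19, adjusted p = 0.000328). Birc5, for Survivin, fell 2.4-fold (adjusted p = 0.00038). Incenp, the scaffold of the complex, was the most abundant of the 4 per length and fell least, from 331, 311 and 298 to 239.96, 217 and 187 normalised counts. The groups did not overlap, and the fall of 1.46-fold passed the test but not the 2-fold limit (log2 fold change -0.55, SE 0.12, adjusted p = 0.00641).

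Of the 10 centromere and kinetochore genes, 8 were downregulated and 10 were lower at the adjusted p alone. Nuf2 (mm9 chr1:171428065-171461595), a subunit of the Ndc80 complex that binds microtubules, had 98.7, 87.4 and 104 normalised counts in control and 29, 14.3 and 10.4 in FeD kidneys. FeD kidney 1 retained more than the other FeD kidneys, yet was far below the lowest control (5.39-fold; log2 fold change -2.43, SE 0.34, adjusted p = 0.000899). Cenpm, a constitutive centromere protein, had 45.1, 43.1 and 54.3 against 11, 10.4 and 6.04 (5.24-fold, log2 fold change -2.39, SE 0.30, adjusted p = 0.000547). Cenpf, a large protein of the outer kinetochore, had 317, 274 and 276 against 75, 72.7 and 57, and the kidneys of each diet were close to one another (4.25-fold; log2 fold change -2.09, SE 0.15, adjusted p = 4.84e-05). Cenpa, the centromeric histone H3 variant, fell 2.18-fold (adjusted p = 0.00143), and was at -0.97 without FeD kidney 2. Cenpe, a kinetochore motor, fell 2.6-fold and Cenpi, a centromere subunit, 2.44-fold (adjusted p = 0.000629 and 0.00527). Cenpn, which reads CENP-A nucleosomes, and Ska1, of the complex that couples kinetochores to microtubules, were the least secure of the 8 (Cenpn -1.05, adjusted p = 0.0227; Ska1 -1.51, adjusted p = 0.0143). Cenpn was not called without control kidney 1 (-0.88), control kidney 3 (-1.06, adjusted p = 0.066), FeD kidney 2 (-0.91) or FeD kidney 3 (-0.87), and Ska1 was not called without control kidney 1 (-1.20, adjusted p = 0.057).

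The change differed in size between subunits of 1 complex, and these differences were not tested. Levels are compared between genes here only as RPKM, reads per kilobase of annotated exon per 1000000 reads. In the Ndc80 complex, which holds 1 copy each of Ndc80, Nuf2, Spc24 and Spc25, the level of Nuf2 went from 2.11 ± 0.186 to 0.391 ± 0.215 RPKM (mean ± SD of 3 control and 3 FeD kidneys), that of Ndc80 from 1.5 ± 0.103 to 0.811 ± 0.0976 and that of Spc25 from 22.4 ± 1.07 to 13.5 ± 1.99. Spc25 was thus the most abundant in every kidney, and its fall of 1.66-fold and that of Ndc80 of 1.86-fold passed the test without reaching 2-fold (adjusted p = 0.00113 and 0.00913). Spc24, which is not among the 52 and was added after its values were seen, went from 6.64 ± 1.15 to 4.56 ± 0.528 RPKM (-0.55, adjusted p = 0.030).

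**Figure D2:**
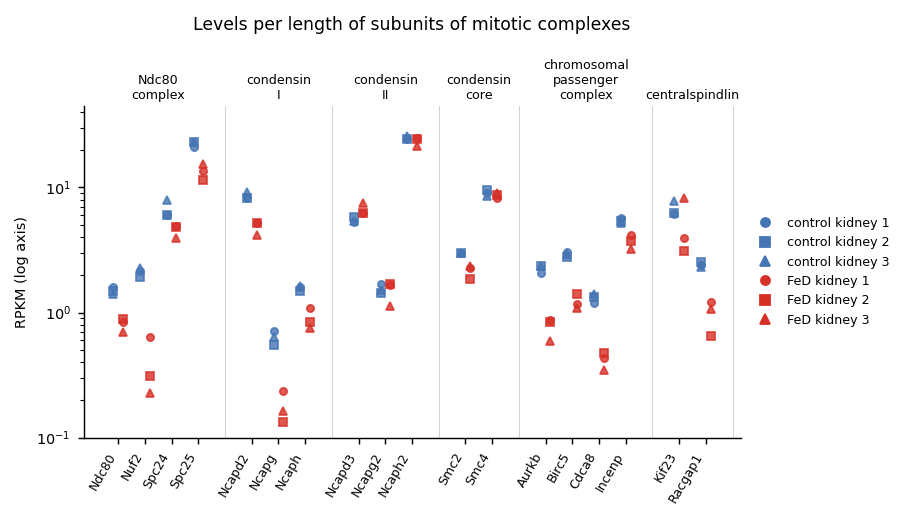
Level per length (RPKM, log axis) of the subunits of 6 mitotic complexes in each kidney, control in blue and FeD in red. Nuf2, Ncapg, Aurkb, Birc5, Cdca8 and Racgap1 show wide gaps between the diets, while Smc4 and the 3 condensin II subunits did not pass the test.

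Anaphase entry and sister separation held 5 downregulated genes of 6. Espl1 (mm9 chr15:102126724-102154787), which encodes separase, the protease that cuts cohesin, had 143, 111 and 110.3 normalised counts in control and 29, 18.2 and 24.2 in FeD kidneys. The FeD kidneys were far below the controls, with no overlap (5.03-fold; log2 fold change -2.33, SE 0.23, adjusted p = 0.000175). Its inhibitor securin, encoded by Pttg1, was the most abundant member per length and had 889, 846 and 883 against 722, 754 and 761. All FeD kidneys were below all controls, but the difference was only 1.17-fold (log2 fold change -0.23, SE 0.07, adjusted p = 0.0287), and its adjusted p was above 0.05 without control kidney 1 (0.1), 2 (0.068) or 3 (0.096) and without FeD kidney 1 (0.093) or 2 (0.051). Ube2c, the ubiquitin-conjugating enzyme of the anaphase promoting complex, had 151, 140.5 and 146 against 53, 36.4 and 27.6 (3.75-fold; log2 fold change -1.91, SE 0.24, adjusted p = 0.000491). Each FeD kidney was below each control, with the reservation that 22.8% of the Ube2c exons overlap Tnnc2 on the opposite strand, whose reads cannot be told apart without strand. Cdc20, the activator of the anaphase promoting complex, fell 2.03-fold (log2 fold change -1.02, SE 0.22, adjusted p = 0.00661) and was at -0.96 without control kidney 3 and -0.77 without FeD kidney 3. The shugoshin genes Sgol1 and Sgol2a, whose products protect centromeric cohesin, fell 2.53-fold and 2.47-fold (adjusted p = 0.00755 and 0.00134).

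Among the 9 genes of spindle motors and cytokinesis, 6 were downregulated. Tpx2, which activates Aurora A on the spindle, had 226, 233 and 219.7 normalised counts in control and 65, 55.8 and 50.9 in FeD kidneys. The groups were tight and far apart (3.95-fold; log2 fold change -1.98, SE 0.14, adjusted p = 5.04e-05). The motor genes Kif4, Kif2c and Kif11 fell 4.16-fold, 3.26-fold and 3.2-fold (adjusted p = 0.000129, 0.0024 and 0.000156), and 15.1% of the Kif4 exons overlap Pdzd11 on the opposite strand. Prc1, which bundles the microtubules of the midzone, fell 2.93-fold, from 242, 254 and 245 to 94, 84.4 and 74.2 (adjusted p = 9.36e-05). Centralspindlin pairs the motor Kif23 with the GTPase activator Racgap1. Racgap1 had 302, 319 and 294 normalised counts in control and 155, 81.8 and 136 in FeD kidneys, and Kif23 had 428, 437 and 544 against 276, 216 and 577. Racgap1 was lower in every FeD kidney (2.42-fold; log2 fold change -1.28, SE 0.20, adjusted p = 0.00158), with 29.4% of its transcript copied elsewhere. Kif23 was low in FeD kidneys 1 and 2 but above every control in FeD kidney 3, and did not pass the test (log2 fold change -0.39, SE 0.32, adjusted p = 0.352). Without FeD kidney 3 its log2 fold change was -0.92 (adjusted p = 0.0015). Kif20a, a cytokinesis motor, fell 1.9-fold, just short of the limit (log2 fold change -0.93, SE 0.18, adjusted p = 0.00402), and passed it without FeD kidney 1 (-1.01) or FeD kidney 2 (-1.001). Of its exons, 32.3% overlap Cdc23 on the opposite strand. Anln, for the actomyosin ring protein anillin, had 213, 196 and 222 against 172, 203 and 139.8. FeD kidney 2 lay within the control range, and the difference did not pass the test (log2 fold change -0.30, SE 0.15, adjusted p = 0.135), although it did without FeD kidney 2 (-0.42, adjusted p = 0.049).

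Of the 8 genes of chromosome condensation and the chromosome surface, 5 were downregulated. Mki67, the source of the Ki-67 proliferation antigen, which coats mitotic chromosomes, had 940.4, 1074 and 877 normalised counts in control and 261, 192 and 168 in FeD kidneys (mm9 chr7:142881471-142908062). Even the highest FeD kidney was far below the lowest control (4.65-fold; log2 fold change -2.22, SE 0.16, adjusted p = 5.32e-05). Top2a, for topoisomerase II alpha, which untangles sister DNA, had 541, 581 and 499 against 156, 131 and 135 (mm9 chr11:98854257-98885503). It had the smallest adjusted p of the 52, with little spread within either diet (3.83-fold; log2 fold change -1.94, SE 0.11, adjusted p = 1.96e-05). Cdca2, which recruits a phosphatase to chromatin, fell 3.6-fold and Cdca3, a trigger of mitotic entry, 3.46-fold (adjusted p = 0.000525 and 0.000389).

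Condensin is built on Smc2 and Smc4, which 2 different sets of subunits share. Smc4 had 810.01, 854 and 766 normalised counts in control and 736, 787 and 813 in FeD kidneys. The groups overlapped, and the difference did not pass the test (log2 fold change -0.06, SE 0.08, adjusted p = 0.588). Smc2 went from 296, 299.8 and 298 to 228, 186 and 234 normalised counts, without overlap and less than 2-fold (1.38-fold; log2 fold change -0.46, SE 0.11, adjusted p = 0.0117). Of condensin I, which acts after the nuclear envelope breaks down, Ncapg went from 0.634 ± 0.081 to 0.179 ± 0.0535 RPKM and Ncaph from 1.57 ± 0.0827 to 0.89 ± 0.169 RPKM. Ncapg was downregulated and Ncaph was lower by less than 2-fold, and 13.3% of the Ncapg exons overlap Lcorl on the opposite strand (Ncapg log2 fold change -1.81, SE 0.26, adjusted p = 0.000964; Ncaph log2 fold change -0.82, SE 0.18, adjusted p = 0.00714). Its remaining subunit, Ncapd2, and those of condensin II, which is nuclear in interphase, are not members and were added after their values were seen. Ncapd2 went from 8.54 ± 0.516 to 4.84 ± 0.578 RPKM (-0.82, adjusted p = 0.000577). In condensin II none passed the test (Ncapd3 0.27, adjusted p = 0.0517; Ncapg2 -0.06, adjusted p = 0.815; Ncaph2 -0.07, adjusted p = 0.458), and the sign of Ncapg2 turned without control kidney 1 (0.01) or FeD kidney 3 (0.13), as did that of Ncaph2 without FeD kidney 3 (0.01).

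The members not called at 2-fold numbered 13, and 8 of them were lower at the adjusted p alone. The other 5 were Nek2, Bub1b, Kif23, Anln and Smc4. Nearest the limit, Cdc20 (-1.02) and Cenpn (-1.05) were just inside it and Kif20a (-0.93) and Ndc80 (-0.89) just outside it. Per length, the members ran from 0.504 to 24.4 RPKM in control kidneys. The median control level was 2.07 RPKM for the called members with an annotated length and 2.99 RPKM for those not called. Over the 51 members with a length, Spearman's rho between control RPKM and log2 fold change was 0.32, given as a description, since the points come from the same 6 kidneys and the level enters the fold change.

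**Figure D3:**
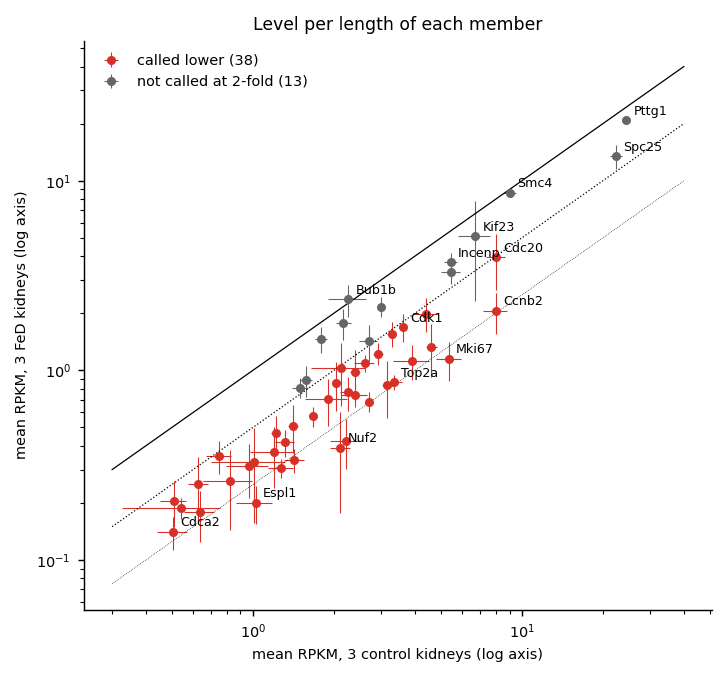
Mean RPKM of 51 members in the 3 FeD kidneys (y, log axis) against the 3 control kidneys (x, log axis), with SD bars, red for downregulated members and grey for those not called. The solid line marks equal levels and the dotted lines 2-fold and 4-fold lower levels. Pttg1 and Spc25, the most abundant, lie above the 2-fold line, and Espl1, Nuf2 and Mki67 lie below the 4-fold line.

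Genes of the rest of the cell cycle were counted from lists drawn up by function with earlier results of these data known, so the counts are descriptions. The other mitosis genes include Spc24, Ncapd2, Ncapd3, Ncapg2 and Ncaph2, named above after their values were seen. Over all genes tested, 5.69% were downregulated and 4.34% upregulated, and 23.3% were lower and 22.4% higher by the adjusted p alone. Of 77 other mitosis genes, 28 were downregulated and 0 upregulated (median -0.55), and 37 were lower and 5 higher by the adjusted p alone. Fam64a fell 9.57-fold, Kifc1, a minus-end spindle motor, 3.6-fold and Iqgap3 4.76-fold (adjusted p = 0.000127, 0.000137 and 0.000212). Of 14 core subunits and coactivators of the anaphase promoting complex, 0 were called in either direction, with a median of -0.06, 3 lower and 2 higher at the adjusted p alone, and 1 was called lower without control kidney 1. Genes of cohesin, its loaders and its other regulators were higher where they passed the test, with 7 of 10 higher and 0 lower at the adjusted p alone. Of these 10, 0 were past 2-fold, and the median was 0.32. Of the 5 cohesin subunit genes in the list, Smc3, Rad21, Stag1 and Stag2 were among the 7, with log2 fold changes of 0.31, 0.30, 0.34 and 0.48. The remaining subunit gene, Smc1a, had a log2 fold change of -0.18, with every FeD kidney below every control, and did not pass the test (adjusted p = 0.0824).

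Earlier steps of the cell cycle were covered by a pair of lists. Of 37 DNA replication genes 6 were downregulated and 0 upregulated, 15 were lower and 2 higher at the adjusted p alone, and the median was -0.30. Cdc6, which loads the replicative helicase, fell 3.17-fold, and Tk1, for thymidine kinase, 2.24-fold (adjusted p = 0.000811 and 0.000758). Rrm2, for a ribonucleotide reductase subunit that carries an iron cofactor, lay at the limit (log2 fold change -1.003, SE 0.14, adjusted p = 0.000968), and was at -0.91 without control kidney 3 and -0.86 without FeD kidney 3. Of 17 regulators of G1 and S phase, 2 were downregulated and 0 upregulated. By the adjusted p alone 5 were lower and 3 higher (all genes: 23.3% lower, 22.4% higher). The downregulated genes were E2f8 (-2.14, adjusted p = 0.00165) and E2f2 (-1.09, adjusted p = 0.00109). E2f2 was at -0.99 without FeD kidney 1 and -0.998 without FeD kidney 2, no longer called.

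Among 22 tested inhibitors of the cell cycle and DREAM complex genes, 2 were upregulated and 1 downregulated (all genes: 4.34% and 5.69%). By the adjusted p alone 7 were higher and 3 lower (all genes: 22.4% and 23.3%). Cdkn1a, for the Cdk inhibitor p21, had 403, 412 and 472 normalised counts in control and 3562, 3038 and 2614 in FeD kidneys. Every FeD kidney was several times above every control (7.15-fold; log2 fold change 2.84, SE 0.12, adjusted p = 8.86e-06). Btg2, an antiproliferative gene, was 2.1-fold higher (log2 fold change 1.07, SE 0.19, adjusted p = 0.00292), and at 0.83 without FeD kidney 1. Rbl2, for the DREAM pocket protein p130, was higher by less than 2-fold (log2 fold change 0.71, SE 0.08, adjusted p = 0.000298), and Cdkn2c, for the Cdk inhibitor p18, was downregulated (log2 fold change -1.67, SE 0.13, adjusted p = 6.76e-05). The other genes of the list that were lower at the adjusted p were Cdkn1c (log2 fold change -0.89, adjusted p = 0.000153) and Rbl1 (-0.37, adjusted p = 0.01). Mybl2, for B-Myb, did not pass the test (log2 fold change -0.35, SE 0.34, adjusted p = 0.427).

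**Figure D4:**
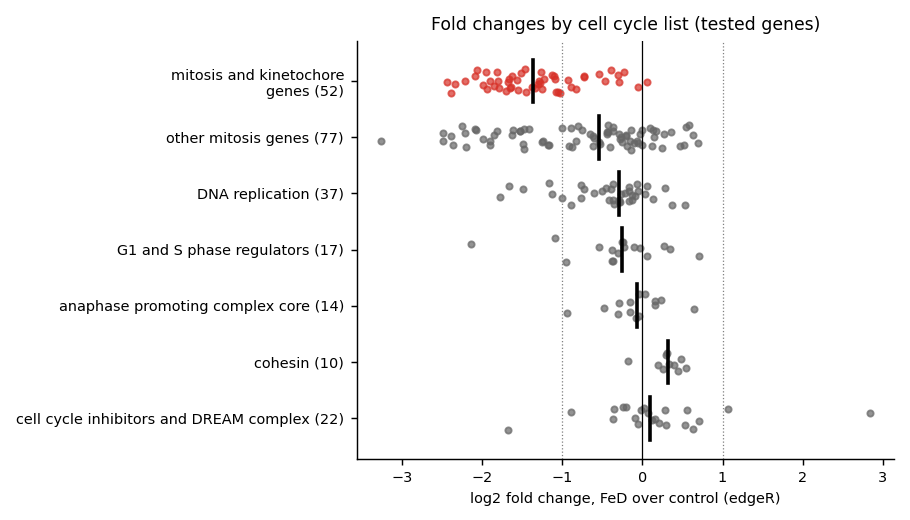
Log2 fold change (FeD over control, edgeR) of each tested gene in the 52 mitosis and kinetochore genes (red) and in 6 other cell cycle lists (grey), with the number tested in parentheses, black bars for medians and dotted lines at 2-fold. The medians run from -1.36 for the 52 genes through -0.55 for other mitosis genes to 0.32 for cohesin.

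Marker lists of some cell types were lower in FeD kidneys and others were not, and any part in the fall of the members was not tested. Of all genes tested, for comparison with every marker list, 5.69% were downregulated and 4.34% upregulated. By the adjusted p alone, 23.3% of all genes were lower and 22.4% higher. Lymphocyte markers, of 10 listed genes, summed to 173, 246 and 165 in control and 71, 72.7 and 63.9 in FeD kidneys. Each FeD kidney was below each control, 3 of 4 tested genes were downregulated (Cd8a -2.22, Cd4 -1.63, Cd79a -2.38), and Ms4a1 was at 0 in every FeD kidney. Where leaving out a kidney let more of these rare genes be tested, 5 were downregulated (without control kidney 3 or FeD kidney 1, 2 or 3). Rare genes can pass the filter through the control kidneys alone. A larger count in such fits is therefore a description only, here and for the erythroid list. Erythroid markers, of 12 listed, summed to 2586, 3765 and 3141 against 1271, 887 and 1635, again without overlap, and 1 of 5 tested was downregulated (Slc4a1, -1.42, adjusted p = 0.00511; 2 without control kidney 1 or FeD kidney 1), while the 4 globin genes of the list are listed at 0 in all 6 kidneys. Myeloid markers ran the other way, with sums of 3055, 3284 and 2911 against 3147, 3481 and 3397, which overlap, and 6 of 10 genes higher and 1 lower at the adjusted p alone. Of these 10 genes, 2 were upregulated and 0 downregulated.

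Of the kidney's own cell types, proximal tubule markers summed to 171762, 184677 and 179841 in control and 102651, 105536 and 93313 in FeD kidneys, with 7 of 10 lower and 0 higher at the adjusted p alone. Slc34a1 and Slc5a2, the phosphate and glucose transporters of that segment, carried the largest falls (-2.22 and -4.89). Slc34a1 alone averaged 71821 normalised counts in control and 15383 in FeD kidneys, so it made up much of the fall in the sum. Endothelial markers summed to 27200 to 27731 in control and 17139.9 to 23365 in FeD kidneys, with 8 of 10 lower and 1 higher. Summed markers of podocytes and of thick ascending limb and distal tubule overlapped between the diets, as 13994, 14324 and 15125 against 15527, 11688 and 16127 and 157009, 153673 and 177067 against 146079, 119844 and 187589. Of the 8 thick ascending limb and distal genes, 1 was downregulated and 1 upregulated (log2 fold changes from -1.56 to 1.13). Interstitial markers summed to 47344, 48169 and 49718 against 32930.1, 40090.4 and 43824, with 3 of 10 lower (2 downregulated) and 4 higher (0 upregulated). Of the nephron progenitor markers, which summed to 818, 884 and 914 against 512, 569.99 and 538, the defining gene Six2 was near 0 in both diets (3.62 ± 0.776 in control and 6.19 ± 3.8 in FeD kidneys, not tested). Of the 7 progenitor markers tested, 2 were lower and 2 higher at the adjusted p alone, and 1 was downregulated and 2 upregulated.

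**Figure D5:**
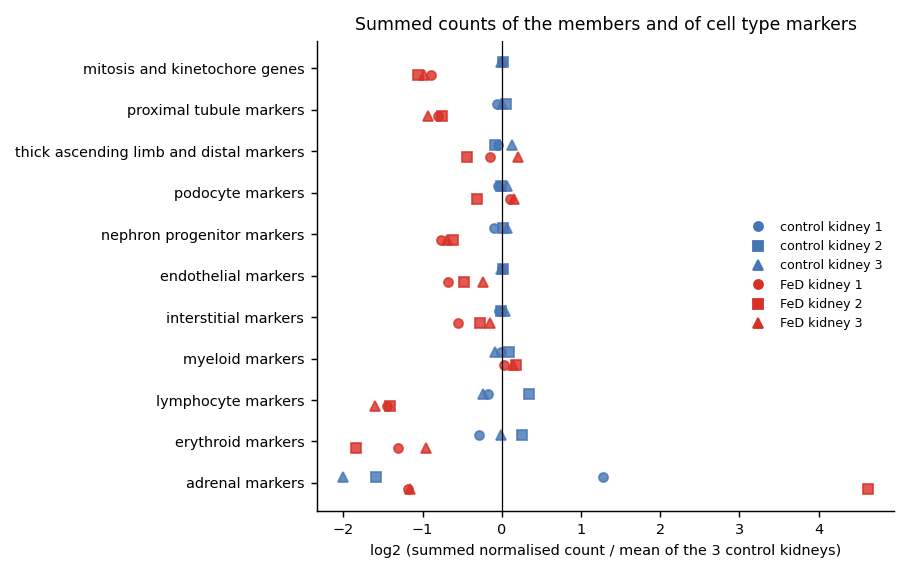
Log2 ratio of the summed normalised count of each list to the mean of the 3 control kidneys, one symbol per kidney (blue, control; red, FeD). The sums of the mitosis and kinetochore genes, proximal tubule, progenitor, endothelial, interstitial, lymphocyte and erythroid lists are lower in every FeD kidney, and the adrenal list sets FeD kidney 2 and control kidney 1 apart.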

How the data were processed

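Total RNA of 6 kidneys was enriched for poly-A RNA and sequenced from TruSeq libraries on a HiSeq2000. The submitters' processing notes name CASAVA 1.8.2, Trimmomatic, TopHat2 2.0.11, HTSeq and mm9; the annotation, counting mode and strand setting are not given in the sources used here. The authors deposited raw counts per gene and kidney, without normalization or pooling. Both tables were joined by symbol, and all columns were used.

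Genes were filtered with filterByExpr and tested in edgeR 4.0.16 (R 4.3.3) with TMM scaling and the quasi-likelihood test, FeD against control, 3 kidneys each, with no covariate. The SE is the absolute log2 fold change over the root of F. The procedure was tested on simulated data. Depth per kidney limits rare members, for which 3 counts are 0.145 to 0.218 reads per 1000000. P-values measure the spread between these 3 kidneys per diet. The members and lists were chosen with earlier results of these data known, so their counts are descriptions. All members are named. From other lists, at most the 3 genes of smallest p per direction past 2-fold are named. Named exceptions were chosen after their values were seen, including Smc1a, Smc3, Rad21, Stag1, Stag2, Rbl1, Rbl2, Cdkn1c and Mybl2. RPKM used exon lengths from GENCODE for NCBIM37 (51 of 52 members). Opposite-strand exons came from that annotation and near-identical copies (at least 95% identity over 100 bases) from minimap2 2.31-r1302. Alternatives were DESeq2 1.42.0, other size factors and filters, a test against 2-fold, the replicate number as a block, each kidney left out, and, added after seeing the data, sex as a term and both adrenal-rich kidneys left out.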

Additional observations from a re-analysis of the deposited data

How the results depend on the processing

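Under 15 alternatives, 16 of the 39 downregulated members were called each time, and 30 were when the test against a 2-fold change is set aside, with members not tested counted as not called. That stricter edgeR test called 17 members lower, and over all genes 286 lower and 225 higher. The count of members called lower was otherwise 35 to 40, and 0 were called higher under any alternative run. With each kidney left out in turn, 35 to 40 members were called lower, 44 to 47 were lower at the adjusted p alone, and the median was -1.46 to -1.29. The filter of at least 10 counts in every kidney left out 3 members (Cenpm, Cdc25c and Ska1) and called 36.

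Correlations of the deviations of kidneys with the same replicate number were -0.162, 9.57e-05 and -0.0348. With 3 kidneys a diet these values cannot settle whether the numbers pair the samples. With the replicate block 39 members were called lower, 46 at the adjusted p alone, and the median was -1.38. Signs turned for Bub1b with sex as a term (-0.00946) and, among the fits without 1 kidney, for Bub1b (-0.0411 to 0.223), Ncapg2 (-0.139 to 0.132) and Ncaph2 (-0.0886 to 0.00573), and the cause was not tested. With 7 to 18 reads in each FeD kidney, counting error limits Cenpm, Cdc25c and Ska1. With 3 kidneys a diet, no exact test over kidneys can go below p = 0.1.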
